A study of Homo sapiens with 6 samples.

Results

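The keratins described here are *KRT5*, *KRT6A*, *KRT7*, *KRT8*, *KRT13*, *KRT16*, *KRT17*, *KRT18*, *KRT19* and *KRT20*, 10 genes picked by symbol for their known place in the layers of the bladder lining or in squamous epithelium, out of 57905 genes in the table. They were measured in RT4, a long-established line that was derived from a papillary bladder tumour without invasion of the muscle. LEADR-KD cells received 100 pmol of an siRNA against *LEADR*, the spliced transcript of the *MIR205HG* gene, and Scramble cells received 100 pmol of a universal negative control siRNA. Both siRNAs were given with a lipid reagent to otherwise unmodified RT4 cells, poly(A) RNA was collected after 48 h, and 3 libraries per group were sequenced. As a model the groups hold 1 cell line and 1 siRNA each, so an effect of the LEADR siRNA on other transcripts and an effect of losing *LEADR* cannot be told apart. Whether the replicates are separate cultures is not stated in the labels, though the paper's methods speak of biological replicates for the RNA sequencing. The p-values reflect only the spread between these libraries.

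Keratins are the intermediate filament proteins of epithelial cells. A filament forms only from pairs of 1 acidic type I keratin and 1 basic type II keratin, and a keratin without a partner is degraded. *KRT5*, *KRT6A*, *KRT7* and *KRT8* are type II and *KRT13*, *KRT16*, *KRT17*, *KRT18*, *KRT19* and *KRT20* are type I. In normal urothelium *KRT7*, *KRT8*, *KRT18* and *KRT19* are found through most or all layers, *KRT20* marks the umbrella cells that face the urine, and *KRT5* and *KRT17* mark basal cells. *KRT13* is found in basal and intermediate cells, while *KRT6A* and *KRT16* are keratins of squamous and wounded epithelium. In bladder tumours *KRT20* is used as a luminal marker, and *KRT5*, *KRT6A* and *KRT16* are used as basal and squamous markers. In the hg19 coordinates of the files, the type II members and *KRT18* lie within 0.72 Mb on chromosome 12, and the other 5 type I members lie within 0.749 Mb on chromosome 17.

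Both strands of the LEADR siRNA are shown so that their seeds can be compared with the keratin transcripts. Its listed strand reads in the same sense as *MIR205HG* and is held by 13 of the 17 annotated isoforms of that gene on chromosome 1, so the strand that pairs with *LEADR* is the reverse complement. Capitals mark bases 2 to 8 of each strand, the seed by which a small RNA finds targets with partial pairing.
LEADR siRNA, strand listed: aACUGGGUgcuuuauauagga
LEADR siRNA, reverse complement: uCCUAUAUaaagcacccaguu
The letters ATATAGG, which pair with the seed of the *LEADR*-pairing strand, were in none of the 10 members, neither in the longest annotated 3′ UTR nor before it, against 8.61% of the 11418 tested genes with a 3′ UTR. The letters ACCCAGT, which pair with the seed of the listed strand, were in 12.5% of those 3′ UTRs and in that of 1 member, *KRT8*. Transcripts were read in their own sense only. The shorter match CCCAGT, which lies inside ACCCAGT, occurred 2 times in the *KRT8* 3′ UTR, and the other 9 members held neither it nor TATAGG, the shorter match to the other seed, in theirs. The *KRT8* site is on the minus strand of chromosome 12 from 53341915 to 53341921 (GRCh37), in the 3′ UTR of the isoform KRT8-217, and 1 of the 10 annotated coding isoforms holds it. The canonical 3′ UTR of *KRT8* lacks it. Capitals mark the match.
KRT8-217, site and flanks: aaaacaaACCCAGTctctgagc
A match is only a description of letters, and binding was not measured.

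Libraries held between 15706033 and 18960822 counts. Levels of 1 gene are given in CPM, counts scaled to library size with TMM factors, and levels of different genes are compared as FPKM, which also divides by the gene's length. The replicates numbered 1 stood apart in both groups by their share of mitochondrial counts, 10.8% in LEADR-KD 1 and 11.9% in Scramble 1, against 3.06% to 5.73% in the other libraries. *MIR205HG* was at 8.13 ± 3.08 CPM in LEADR-KD and 22.7 ± 6.64 CPM in Scramble (SD, n = 3 each), a log2 fold change of -1.47 with a standard error of 0.26 (edgeR's quasi-likelihood test, Benjamini-Hochberg adjusted p = 0.0018). Epithelial markers matched the label in part, since *CDH1*, *EPCAM*, *CLDN4*, *GATA3* and *ELF3* were tested and *CLDN7* had 1 read in all 6 libraries. The summed level of these 6 epithelial markers was 1777 to 1945 CPM in LEADR-KD and 1484 to 1643 CPM in Scramble, and of the 5 tested *CDH1* rose and *ELF3* fell. Of 6 fibroblast markers *COL1A2*, *DCN* and *PDGFRB* were at 0 in every library, as were *CD3E*, *CD68* and *LYZ* of leukocytes and *KDR* of endothelium. The 6 fibroblast markers summed to 18.4 to 25.7 CPM in LEADR-KD and 26.4 to 32.1 CPM in Scramble, mostly *COL3A1* (19.8 ± 4.40 and 27.3 ± 3.13 CPM, SD, n = 3 each), the 6 leukocyte markers to at most 0.44 CPM and 0.411 CPM, and the 3 endothelial markers, mostly *VWF*, to 2.55 to 4.46 CPM and 6.99 to 10.2 CPM. The part of these shifts in any keratin result was not tested.

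RT4 expressed *KRT7*, *KRT8*, *KRT18* and *KRT19*, the keratins of simple epithelium, at high level and *KRT17* at a lower one, while the umbrella cell keratin *KRT20* and the basal, intermediate and squamous keratins *KRT5*, *KRT13*, *KRT6A* and *KRT16* were scarce. After LEADR-KD the basal keratin *KRT17* rose 1.48-fold and *KRT18* rose 1.31-fold, while *KRT16*, a squamous keratin already near the limit of detection, fell to 0.402 of its Scramble level. With 1 library left out at a time, the call of *KRT17* held in all 6 fits, that of *KRT18* in 2 and that of *KRT16* in 1. All 10 members had at least 1 count, 7 passed the filter on low counts, and of these 2 rose, 1 fell and 4 did not pass the test at an adjusted p under 0.05. Over all 14178 tested genes 12.2% rose and 12.1% fell by the same test. Beside that background, counts of 2 and 1 among 7 tested members are no result about the members as a group. The median log2 fold change was 0.14 over the 7 tested members and -0.01 over all tested genes. The groups did not overlap in CPM for *KRT8*, *KRT17* and *KRT18*, higher in LEADR-KD, and for *KRT16*, lower in LEADR-KD, where 19.9% of all tested genes had non-overlapping groups in each direction. Adding a log2 fold change beyond 1, as for the background of 1.64% of genes higher and 2.58% lower, left *KRT16* alone.

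**Figure D1:**
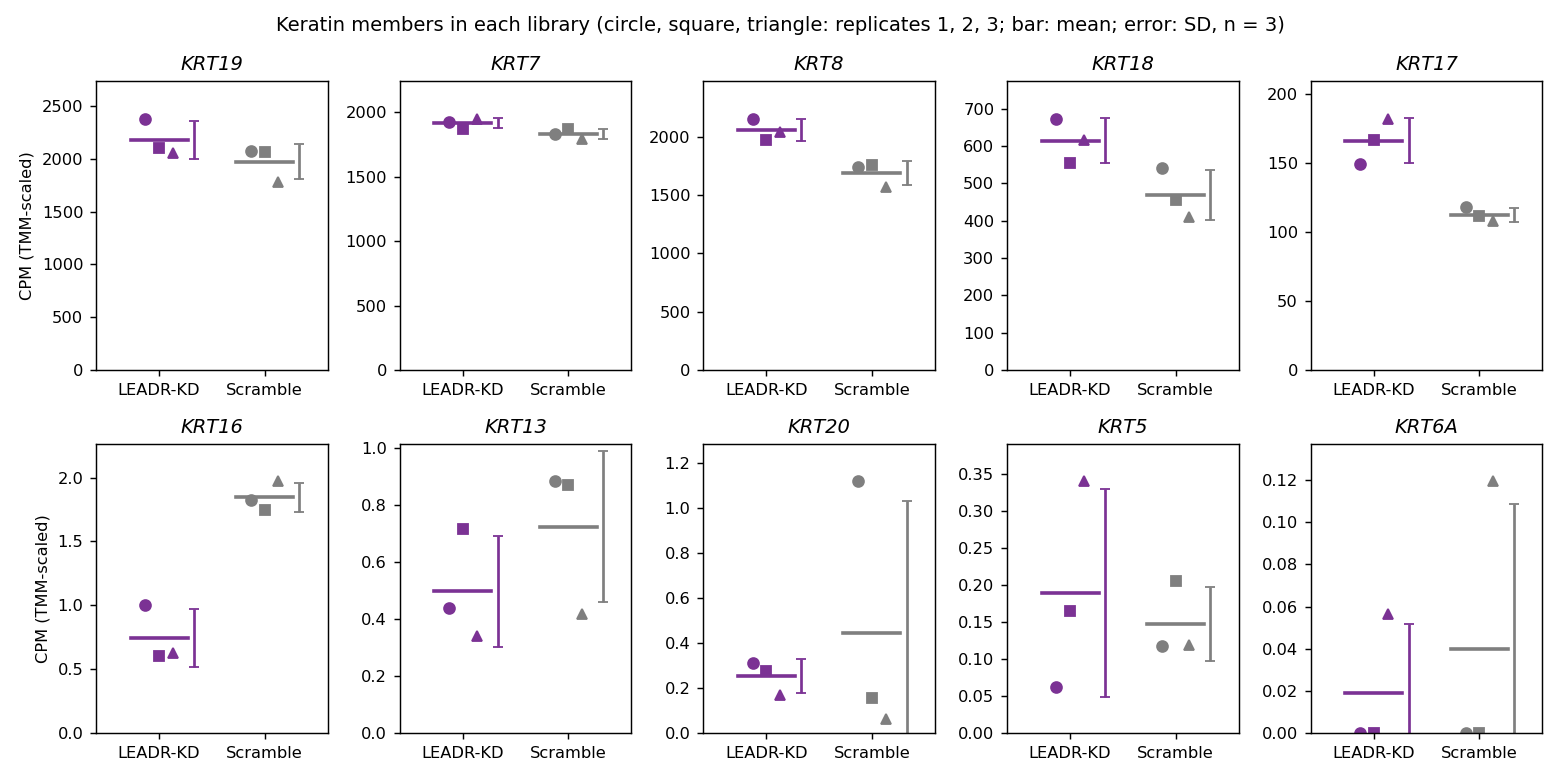
Level of each member in TMM-scaled CPM (vertical axis, starting at 0 with its own scale in each panel), LEADR-KD left and Scramble right. Points are libraries, bars are means of 3 and error bars are SD, drawn down to 0 at most. *KRT17* lies between 150 and 182 CPM in LEADR-KD and between 108 and 118 CPM in Scramble, and *KRT20* is high in Scramble 1 only.

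*KRT19* is the smallest keratin, a type I keratin that pairs with *KRT7* or *KRT8* in luminal cells, and it was the most abundant member (ENSG00000171345, chromosome 17, 39679869 to 39684560, minus strand). It had 2378, 2104 and 2051 CPM in LEADR-KD, against 2076, 2066 and 1778 CPM in Scramble. The groups overlapped, since LEADR-KD 3 was below both Scramble 1 and Scramble 2. The log2 fold change was 0.14 with a standard error of 0.12 and did not pass edgeR's quasi-likelihood test (Benjamini-Hochberg adjusted p = 0.431). Among non-mitochondrial protein-coding genes ordered by FPKM it ranked between 7 and 8 in LEADR-KD and between 7 and 10 in Scramble.

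*KRT7*, the type II keratin of simple and glandular epithelia that is read in pathology as a urothelial marker, had the smallest log2 fold change of the tested members (ENSG00000135480, chromosome 12, 52626304 to 52645970, plus strand). Its levels were 1927, 1871 and 1950 CPM in LEADR-KD, against 1835, 1873 and 1793 CPM in Scramble. Only Scramble 2 reached into the LEADR-KD range. The log2 fold change was 0.06 with a standard error of 0.10 (edgeR's quasi-likelihood test, adjusted p = 0.700). The gene model of *KRT86* (52643084 to 52702947, plus strand) overlaps that of *KRT7*, and *KRT86* had at most 12 counts in any library.

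*KRT8* and *KRT18* are the founding pair of simple epithelium and the first keratins of the embryo. *KRT8* (ENSG00000170421, chromosome 12, 53290977 to 53343738, minus strand) had 2152, 1973 and 2041 CPM in LEADR-KD, against 1741, 1759 and 1570 CPM in Scramble. Every LEADR-KD library was above every Scramble library. The mean was 2055 ± 90.4 CPM in LEADR-KD and 1690 ± 104 CPM in Scramble (SD, n = 3 each), a fold of 1.22 and a log2 fold change of 0.28 with a standard error of 0.11. This did not pass edgeR's quasi-likelihood test (adjusted p = 0.0804). It passed by DESeq2 (adjusted p = 0.00729) and, in edgeR, without the filter on low counts (adjusted p = 0.04955). *KRT8* also passed with the replicate number as a block, which is described with the other processing choices. The adjusted p ranged from 0.101 to 0.221 when 1 library was left out and from 0.00729 to 0.197 over the other alternatives.

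*KRT18* (ENSG00000111057, chromosome 12, 53342655 to 53346685, plus strand) had 673, 554 and 615 CPM in LEADR-KD, against 540, 454 and 411 CPM in Scramble. The groups did not overlap but came close, at LEADR-KD 2 and Scramble 1. In each group the highest value was in the library with the most mitochondrial counts. The mean was 614 ± 59.2 CPM in LEADR-KD and 468 ± 66.0 CPM in Scramble (SD, n = 3 each), and the log2 fold change of 0.39 with a standard error of 0.12 passed edgeR's quasi-likelihood test (adjusted p = 0.0297). With both libraries numbered 1 left out the log2 fold change was 0.43 and it still passed (edgeR, adjusted p = 0.00871). The call was lost without LEADR-KD 1 (edgeR, adjusted p = 0.0796), LEADR-KD 3 (0.0720), Scramble 2 (0.0971) or Scramble 3 (0.105), with log2 fold changes of 0.30 to 0.51 over all 6 leave-outs.

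*KRT8* and *KRT18* are neighbours on opposite strands whose gene models overlap by 1084 bp, of which 525 bases are exonic on both strands in the annotation. The library kit marked strand. The strand setting of the counting was not given in any source used here, and reads from that overlap may have been assigned to either gene or dropped. Many pseudogenes of both genes are also in the table. Their counts amounted to at most 0.606% of those of *KRT8* and 0.552% of those of *KRT18* in any library, and adding them left the log2 fold changes at 0.28 and 0.39.

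*KRT20*, the umbrella cell keratin and a sign of terminal urothelial differentiation, was almost absent (ENSG00000171431, chromosome 17, 39032193 to 39041479, minus strand). It had 5, 5 and 3 counts in LEADR-KD, against 19, 3 and 1 counts in Scramble. Only Scramble 1 was high, and the other Scramble libraries were at or below the floor of 3 counts. The summed counts were 13 (exact 95% Poisson interval 6.92 to 22.2, for counting error only) in LEADR-KD and 23 (14.6 to 34.5) in Scramble, so the intervals overlap. *KRT20* did not pass the filter, no fold change is given, and a difference was not detectable at this depth.

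*KRT17*, a type I keratin of basal urothelial cells that is also switched on in wounded epidermis and in squamous tumours, gave the clearest difference (ENSG00000128422, chromosome 17, 39775689 to 39781094, minus strand). Its levels were 150, 167 and 182 CPM in LEADR-KD, against 118, 112 and 108 CPM in Scramble. Every LEADR-KD library was above every Scramble library. The mean was 166 ± 16.3 CPM in LEADR-KD and 113 ± 5.02 CPM in Scramble (SD, n = 3 each). The log2 fold change of 0.56 with a standard error of 0.09 passed edgeR's quasi-likelihood test (adjusted p = 0.000915). It passed under all 17 alternatives run, with log2 fold changes of 0.50 to 0.66 and adjusted p of at most 0.0165, edgeR, DESeq2 and limma included. Its own FPKM rank among non-mitochondrial protein-coding genes was 524 to 670 in LEADR-KD and 846 to 982 in Scramble. The canonical *KRT17* transcript shares only 0.353% of its 100-base stretches exactly with transcripts of other genes, and its pseudogenes drew at most 0.138% of its counts. The gene model of *JUP* (chromosome 17, 39775692 to 39943183, minus strand) covers nearly all of that of *KRT17* on the same strand. Reads from that overlap may have been assigned to either gene or dropped, which was not tested. *JUP* had a log2 fold change of 0.13 and did not pass (edgeR's quasi-likelihood test, adjusted p = 0.350).

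*KRT5*, the type II keratin that defines basal cells and is the usual partner of *KRT14*, was at the limit of detection (ENSG00000186081, chromosome 12, 52908359 to 52914471, minus strand). It had 1, 3 and 6 counts in LEADR-KD, against 2, 4 and 2 counts in Scramble. The groups overlapped, and the summed counts were 10 (exact 95% Poisson interval 4.80 to 18.4) in LEADR-KD and 8 (3.45 to 15.8) in Scramble. *KRT14* itself had 7 counts in LEADR-KD 1 and 0 in each of the other 5 libraries. *KRT15*, a further keratin of basal cells, was low but measurable, with 37, 119 and 49 counts in LEADR-KD, against 98, 95 and 43 counts in Scramble.

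*KRT6A*, an inducible type II keratin of wounded and squamous epithelium and a partner of *KRT16* and *KRT17*, had 0, 0 and 1 counts in LEADR-KD, against 0, 0 and 2 counts in Scramble (ENSG00000205420, chromosome 12, 52880958 to 52887041, minus strand). Every library was at or below the floor of 3 counts, which is 0.165 to 0.188 CPM in LEADR-KD and 0.154 to 0.179 CPM in Scramble. *KRT6A* also shares 18.2% of its 100-base stretches with other genes, the largest share among the members, so some of its reads could have been discarded in counting.

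*KRT16* is the type I keratin that accompanies *KRT6A* in wounded and hyperproliferative epidermis. The gene (ENSG00000186832, chromosome 17, 39766030 to 39772151, minus strand) had 16, 11 and 11 counts in LEADR-KD, against 31, 34 and 33 counts in Scramble. In CPM this was 1.00, 0.605 and 0.623 in LEADR-KD, against 1.83, 1.74 and 1.97 in Scramble. The groups did not overlap, and the summed counts were 38 (exact 95% Poisson interval 26.9 to 52.2) in LEADR-KD and 98 (79.6 to 119.4) in Scramble. The log2 fold change of -1.31 with a standard error of 0.37 passed edgeR's quasi-likelihood test (adjusted p = 0.0239).

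The fall of *KRT16* rests on few reads. It passed without LEADR-KD 1 (edgeR, adjusted p = 0.0249) but not without LEADR-KD 2 (0.0940), LEADR-KD 3 (0.0872), Scramble 1 (0.0503), Scramble 2 (0.0593) or Scramble 3 (0.0824), while the log2 fold change stayed between -1.57 and -1.18. It passed under the other 11 alternatives, and on the log2(FPKM + 1) scale, which understates the change of low genes, it was -0.42. *KRT16* shares 7.12% of its 100-base stretches with other genes, foremost *KRT14* and the pseudogenes *KRT16P3* and *KRT16P2*. Its copies had 1, 1 and 8 counts in LEADR-KD, against 0, 3 and 6 counts in Scramble, which in LEADR-KD 3 is 72.7% of the count of *KRT16*. With the copies added the log2 fold change was -1.11 and still passed (edgeR, adjusted p = 0.0415).

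*KRT16* and *KRT17* are close relatives whose genes lie 3537 bp apart on the same strand. Their log2 fold changes had opposite signs, and the ratio of *KRT17* to *KRT16* in FPKM was 146, 270 and 285 in LEADR-KD, against 63.0, 62.4 and 53.5 in Scramble. The lowest LEADR-KD ratio was more than the highest Scramble ratio. This pair was chosen after the values of both genes were seen, so the ratio is a description.

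*KRT13*, the keratin of differentiating non-cornified squamous epithelium and of basal and intermediate urothelial cells, had 7, 13 and 6 counts in LEADR-KD, against 15, 17 and 7 counts in Scramble (ENSG00000171401, chromosome 17, 39657233 to 39661957, minus strand). The groups overlapped, and the summed counts were 26 (exact 95% Poisson interval 16.98 to 38.1) in LEADR-KD and 39 (27.7 to 53.3) in Scramble. The log2 fold change was -0.54 with a standard error of 0.51 and did not pass edgeR's quasi-likelihood test (adjusted p = 0.494).

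**Figure D2:**
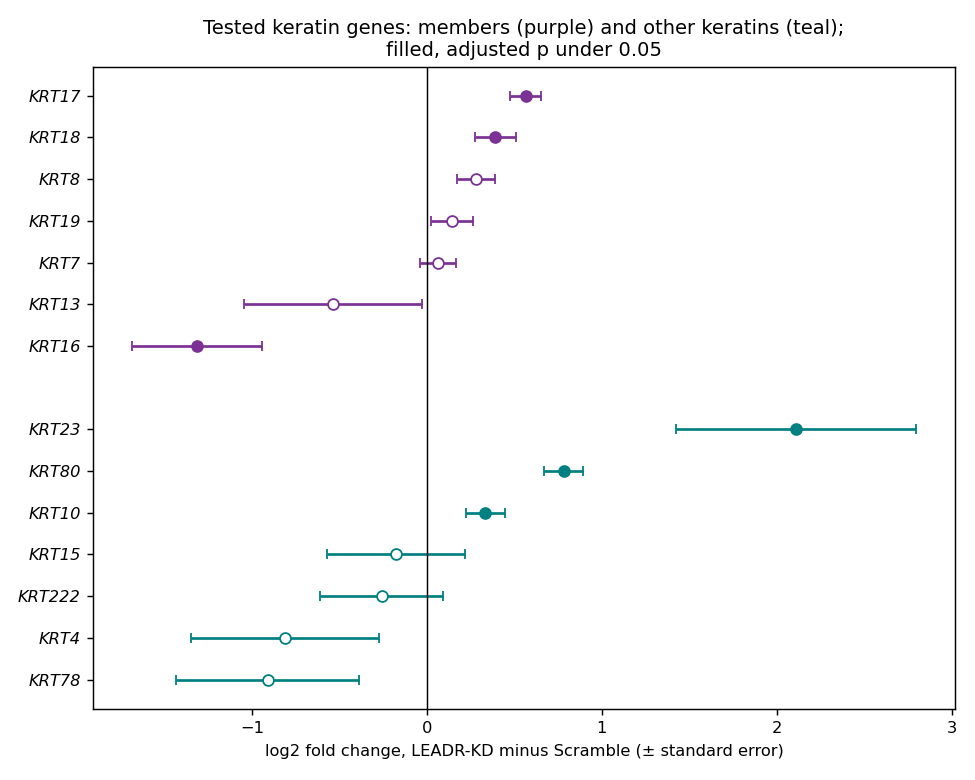
Log2 fold change of LEADR-KD over Scramble with its standard error (horizontal axis) for the 7 tested members in purple and the 7 other tested keratins in teal. Filled points passed at an adjusted p under 0.05. *KRT17* and *KRT18* lie above 0 and *KRT16* below it among the members, and *KRT80*, *KRT10* and *KRT23* lie above 0 among the others.

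Set side by side per length, the members covered a range from 883 FPKM for *KRT19* to 0.00993 FPKM for *KRT6A* as the mean of all 6 libraries. *KRT7* followed *KRT19* with 455 FPKM, then *KRT8* with 372, *KRT18* with 167 and *KRT17* with 54.6 FPKM. The ranges of these 5 neighbours over the libraries did not overlap, nor did those of *KRT17* and *KRT16*. Then came *KRT16* with 0.519, *KRT13* with 0.208, *KRT20* with 0.187 and *KRT5* with 0.0390 FPKM, and from *KRT16* downwards each gene's range overlapped that of the next. *KRT17* thus stood alone between the abundant and the scarce members, with *KRT18* at 3.11 times its level as the mean ratio over the libraries.

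The length that the FPKM values divide by counts all annotated exons of a gene and is 1.67 to 2.81 times that of the canonical transcript for the 5 abundant members. With the canonical length, an alternative added after the data were seen, the order of the means stayed the same but the gaps changed. The ratio of *KRT19* to *KRT7* was 1.29 in place of 1.94, and *KRT7* and *KRT8* came close, at 1179 ± 24.9 and 1152 ± 50.7 CPM per kb in LEADR-KD and 1128 ± 24.8 and 947 ± 58.3 CPM per kb in Scramble (SD, n = 3 each). In LEADR-KD 1 *KRT8* was above *KRT7* on this scale. Fold changes between the groups do not depend on the length.

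Together the 10 members took 0.669%, 0.680% and 0.695% of all counts in LEADR-KD, against 0.601%, 0.644% and 0.604% in Scramble. Their summed FPKM was 2190, 1979 and 2020 in LEADR-KD, against 1882, 1865 and 1665 in Scramble. Both measures were higher in every LEADR-KD library than in any Scramble library. Neither was tested, and 19.9% of all tested genes also had non-overlapping groups in CPM with LEADR-KD higher. The most abundant members, *KRT19*, *KRT7* and *KRT8*, did not pass edgeR's quasi-likelihood test on their own. *KRT7*, *KRT8*, *KRT18* and *KRT19* made up 96.8% ± 0.436 of the summed FPKM in LEADR-KD and 97.5% ± 0.0967 in Scramble (SD, n = 3 each). *KRT17* made up 3.18% ± 0.438 in LEADR-KD and 2.44% ± 0.0937 in Scramble, and the 5 scarce members 0.0318% ± 0.00365 and 0.0701% ± 0.0156.

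Since keratins assemble in pairs, the balance of partners was compared in each library. The ratio of *KRT8* to *KRT18* in FPKM was 2.06, 2.29 and 2.13 in LEADR-KD, against 2.07, 2.49 and 2.46 in Scramble. The ratio of *KRT7* to *KRT19* was 0.462, 0.508 and 0.543 in LEADR-KD, against 0.504, 0.518 and 0.576 in Scramble. Both ratios overlapped between the groups. Each LEADR-KD ratio was nevertheless below that of the Scramble library with the same number. Whether the numbers mark pairs is not known, and a shift within either pair was not tested. The summed type II members against the summed type I members likewise gave 0.700, 0.747 and 0.775 in LEADR-KD, against 0.721, 0.756 and 0.807 in Scramble.

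Ratios across the pairs were also compared. The ratio of *KRT8* to *KRT7*, both type II, was 0.913, 0.862 and 0.856 in LEADR-KD, against 0.776, 0.768 and 0.716 in Scramble. The ratio of *KRT18* to *KRT19*, both type I, was 0.205, 0.191 and 0.218 in LEADR-KD, against 0.189, 0.160 and 0.168 in Scramble. Neither ratio overlapped between the groups, so in these libraries *KRT8* and *KRT18* stood higher against *KRT7* and *KRT19* in LEADR-KD. Both ratios were chosen after the values were seen and are given without a test.

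**Figure D3:**
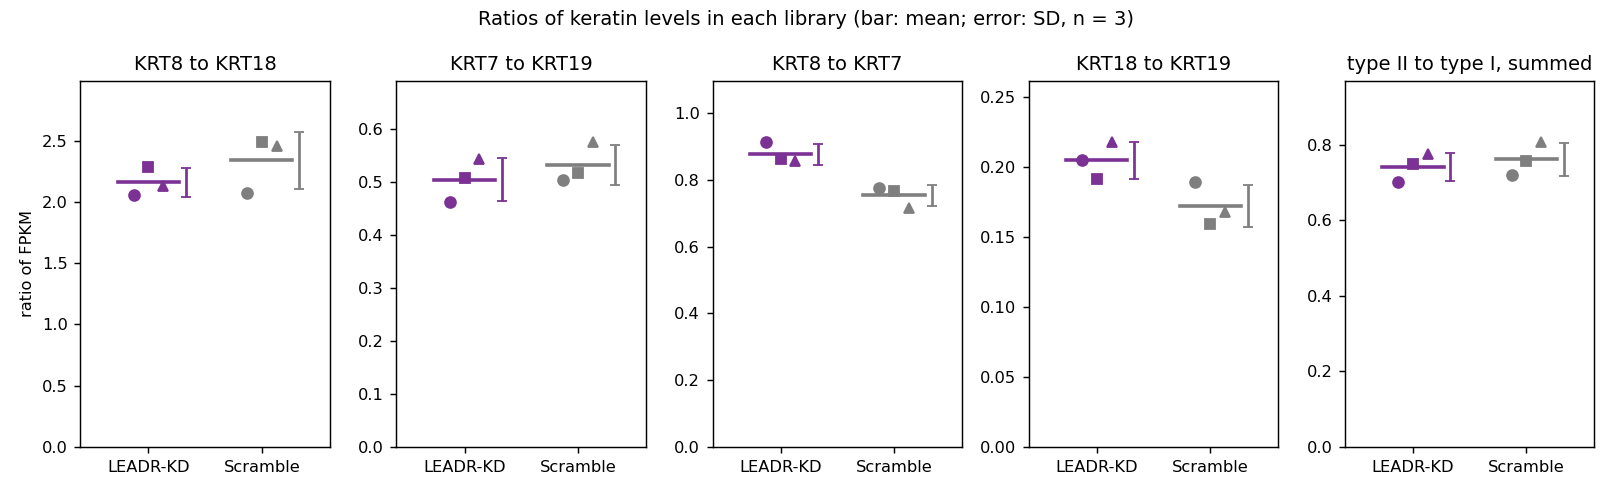
Ratio of FPKM values in each library (vertical axis, from 0) for 5 keratin pairs or sums, LEADR-KD left and Scramble right, with points for libraries, bars for means and error bars for SD (n = 3). The ratio of *KRT8* to *KRT7* is 0.877 ± 0.0315 in LEADR-KD and 0.753 ± 0.0323 in Scramble without overlap, while that of *KRT8* to *KRT18* is 2.16 ± 0.118 and 2.34 ± 0.233 with overlap.

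Of the 46 other keratin gene IDs in the table, 24 had a count and 7 were tested, of which 3 rose and 0 fell, where 12.2% of all tested genes rose and 12.1% fell. *KRT80*, a type II keratin of differentiating epithelial cells, had 54.4, 69.9 and 66.4 CPM in LEADR-KD, against 36.2, 34.9 and 40.0 CPM in Scramble. The groups were well apart, and the log2 fold change of 0.78 with a standard error of 0.11 passed edgeR's quasi-likelihood test (adjusted p = 0.000481) and all 16 alternatives. *KRT10*, a type I keratin of the upper epidermis, averaged 44.5 ± 2.51 CPM in LEADR-KD and 35.3 ± 4.20 CPM in Scramble (SD, n = 3 each), a log2 fold change of 0.33 (edgeR's quasi-likelihood test, adjusted p = 0.0476). *KRT23*, a type I keratin of glandular tumours, had 14, 32 and 18 counts in LEADR-KD, against 0, 10 and 5 counts in Scramble, and its log2 fold change of 2.11 with a standard error of 0.68 passed the same test (edgeR, adjusted p = 0.0429). *KRT23* passed the filter on low counts only through LEADR-KD, where it was higher, and with so few Scramble counts the size of its fold is uncertain. The call of *KRT10* was lost without LEADR-KD 2 (edgeR, adjusted p = 0.124), LEADR-KD 3 (0.141), Scramble 1 (0.143) or Scramble 2 (0.0970). It was also lost without both libraries numbered 1 (edgeR, adjusted p = 0.0931) and with library totals only (edgeR, 0.204). With limma on log2(FPKM + 1) and no filter it did not pass either (adjusted p = 0.1035). The call of *KRT23* was lost without LEADR-KD 2 (edgeR, adjusted p = 0.175), LEADR-KD 3 (0.0761), Scramble 1 (0.0751) or Scramble 3 (0.0936), and under 2 of 9 other alternatives. *KRT15*, *KRT222* (ENSG00000264058), *KRT4* and *KRT78* did not pass, with log2 fold changes of -0.18, -0.26, -0.81 and -0.91, of which those of *KRT15* and *KRT222* turned positive without some libraries, and the median of the 7 was -0.18.

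**Figure D4:**
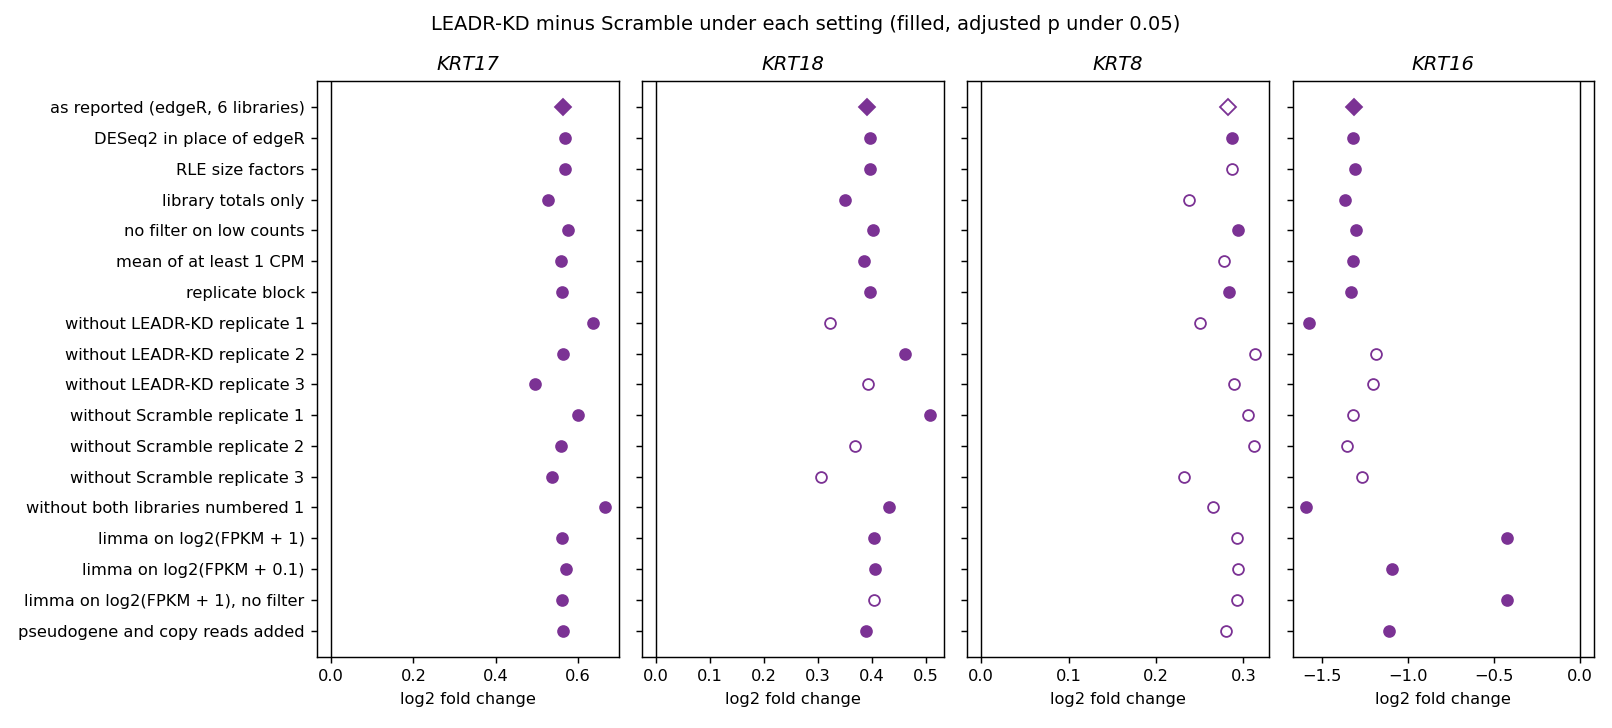
Log2 fold change of LEADR-KD over Scramble (horizontal axis) for *KRT17*, *KRT18*, *KRT8* and *KRT16* under the fit as reported and each of 17 alternatives, one per line. Filled points have an adjusted p under 0.05. All points of *KRT17* are filled, those of *KRT18* and *KRT16* turn open when certain single libraries are left out, and *KRT8* is filled under 3 alternatives only.

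Keratin filaments end at desmosomes, which join cells, and at hemidesmosomes, which hold basal cells to the matrix. Of 15 tested plaque genes 4 rose, 1 fell and 10 did not pass, beside 12.2% and 12.1% of all tested genes, with a median log2 fold change of 0.10. *PPL*, or periplakin, which ties keratins to the desmosome and the cornified envelope, had 203, 219 and 198 CPM in LEADR-KD, against 105, 112 and 108 CPM in Scramble. Its levels in the groups were far apart, and its log2 fold change was 0.93 with a standard error of 0.08 (edgeR's quasi-likelihood test, adjusted p = 1.252e-05). The plakophilins *PKP2* and *PKP3*, which cluster desmosomal proteins, rose by 0.56 and 0.46 on the log2 scale, and *DSP*, or desmoplakin, the linker of keratin to the desmosome, by 0.37. *COL17A1*, the collagen of the hemidesmosome, was lower by a log2 fold change of -0.33. The *DSP* call was lost without LEADR-KD 1, LEADR-KD 2, Scramble 2 or Scramble 3 (edgeR, adjusted p 0.0958, 0.129, 0.136 and 0.118), and the *COL17A1* call without LEADR-KD 1, LEADR-KD 2 or Scramble 2 (edgeR, adjusted p 0.0661, 0.0873 and 0.1045).

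Other intermediate filament genes were few. Only 5 of 13 were tested, and *LMNB1*, the B-type lamin of the nuclear envelope, was the only one that rose, with 381 ± 37.5 CPM in LEADR-KD and 230 ± 24.9 CPM in Scramble (SD, n = 3 each), and a log2 fold change of 0.73 (edgeR's quasi-likelihood test, adjusted p = 0.000463). *VIM*, the mesenchymal intermediate filament vimentin, had at most 3 counts in any library. Of 10 genes whose products bind, cleave or fold keratins, 1 rose and 3 fell, beside 12.2% and 12.1% of all tested genes. *TRADD*, a death receptor adaptor that binds *KRT18*, *YWHAZ*, a 14-3-3 protein, and *DNAJB6*, a chaperone of *KRT18*, had log2 fold changes of -0.39, -0.37 and -0.26. The *TRADD* call held only without Scramble 1, the *DNAJB6* call was lost in 5 of 6 leave-outs and held without Scramble 1, and the *YWHAZ* call was lost without LEADR-KD 2 or Scramble 2 (edgeR, adjusted p of up to 0.160, 0.161 and 0.0689).

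Genes of the cornified envelope and squamous differentiation were mostly too scarce to test. Only 6 of 21 were tested, 1 rose and 5 did not pass, beside 12.2% of all tested genes that rose, with a median log2 fold change of -0.04. The gene that rose was *SPRR3*, a small proline-rich envelope protein, with 5.95, 7.81 and 10.6 CPM in LEADR-KD, against 3.95, 2.93 and 3.88 CPM in Scramble (log2 fold change 1.19, edgeR's quasi-likelihood test, adjusted p = 0.00465). Its change had the opposite sign to that of *KRT16*.

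The other luminal and basal genes of the urothelium held calls in both directions, and the shares over all tested genes were 12.2% higher and 12.1% lower. Of 13 luminal genes 3 rose, 3 fell and 7 did not pass (median 0.0007), and of 10 tested basal genes 2 rose, 2 fell and 6 did not pass (median 0.02). Among luminal genes *UPK1B*, a uroplakin of the umbrella cell plaque, had a log2 fold change of 0.76, *FABP4*, a fatty acid carrier, 0.43 and *UPK3B*, a further uroplakin, 0.26, while *SNX31*, a sorting nexin that binds uroplakins in mouse umbrella cells, had -0.92 and the transcription factors *ELF3* and *FOXA1* had -0.51 and -0.30. Among basal genes *LAMB3*, a laminin chain of the basement membrane, had a log2 fold change of 0.86 and the hyaluronan receptor *CD44* 0.45, while the growth factor receptor *EGFR* had -0.33, as did *COL17A1*, which is on both this and the plaque list. Without 1 library the calls were lost for *FABP4* (LEADR-KD 1, Scramble 2 or Scramble 3, edgeR, adjusted p of up to 0.0714), *FOXA1* (LEADR-KD 1, LEADR-KD 3 or Scramble 2, up to 0.0970), *EGFR* (LEADR-KD 2, LEADR-KD 3 or Scramble 1, up to 0.106) and *UPK3B* (each but LEADR-KD 3, up to 0.0837). Both medians lay close to the -0.01 of all tested genes.

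Of 26 transcription factors with a known part in keratin or urothelial gene control, 3 rose, 8 fell and 15 did not pass, beside 12.2% and 12.1% of all tested genes, with a median log2 fold change of -0.13. The genes of the retinoic acid receptors, through which retinoids restrain squamous keratins, did not move together. *RARG* had 46.2, 48.7 and 50.2 CPM in LEADR-KD, against 93.4, 105 and 108 CPM in Scramble (log2 fold change -1.08, edgeR's quasi-likelihood test, adjusted p = 1.088e-05), and *RARB*, with 3, 8 and 10 counts against 28, 37 and 46 counts, had -2.36 (edgeR, adjusted p = 0.0031). *RARB* passed the filter on low counts only through Scramble, where it was higher. *RARA*, at 15.3 ± 2.96 CPM in LEADR-KD and 10.7 ± 1.54 CPM in Scramble (SD, n = 3 each), had 0.52 and did not pass (edgeR, adjusted p = 0.0512). *SOX2*, a stem cell factor, and *NFE2L2*, the oxidative stress factor NRF2, had log2 fold changes of -0.78 and -0.70. Among the genes that rose were *JUN*, a subunit of AP-1, and *KLF4*, a factor of epithelial differentiation, with log2 fold changes of 0.73 and 0.67. Both calls were lost without certain libraries, that of *JUN* without LEADR-KD 2, LEADR-KD 3, Scramble 1 or Scramble 2 (edgeR, adjusted p of up to 0.126) and that of *KLF4* without LEADR-KD 2, LEADR-KD 3 or Scramble 2 (up to 0.0747). *TP63*, the master factor of basal cells and an activator of *KRT5* and *KRT17* in other epithelia, averaged 195 ± 10.0 CPM in LEADR-KD and 224 ± 6.41 CPM in Scramble (SD, n = 3 each) and did not pass (edgeR's quasi-likelihood test, adjusted p = 0.0797).

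**Figure D5:**
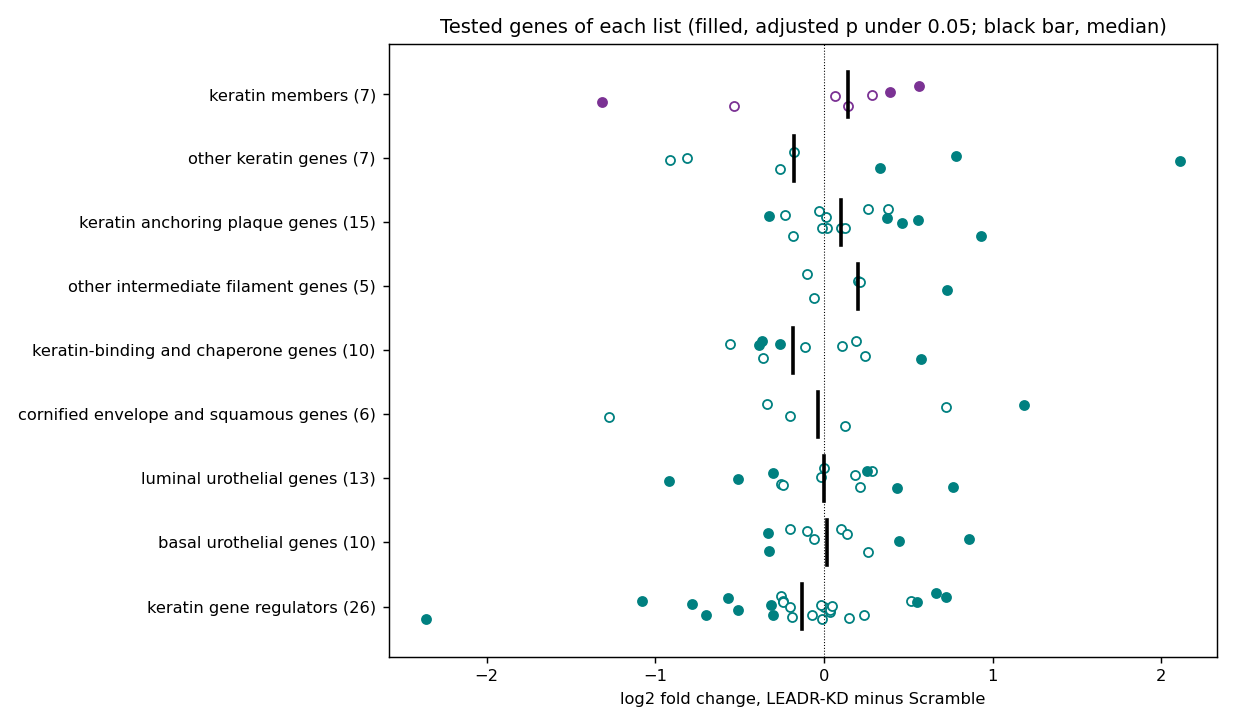
Log2 fold change of LEADR-KD over Scramble (horizontal axis) for the tested genes of the keratin members and 8 related lists, with the number tested in brackets and the median as a black bar. Filled points passed at an adjusted p under 0.05. Each list holds points on both sides of 0, and list medians lie between -0.19 and 0.20.

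Genes whose pattern over the 6 libraries lay closest to the 2 members with the smallest adjusted p were sought among 9426 genes of at least 10 CPM by the root mean square distance of mean-centred log2 CPM. For *KRT17* they were *FEZ2*, *EVI5* and *LRRC57*, at distances of 0.05 each on the log2 scale and log2 fold changes of 0.63, 0.60 and 0.63. For *KRT16* they were *PTPRG*, *CTB-131K11.1* and *AP3S2*, at distances of 0.08, 0.13 and 0.14 and log2 fold changes of -1.12, -1.06 and -1.27. Genes picked by this distance share the log2 fold change of the member by construction. No keratin was among the 3 nearest genes of either member. The keratins of at least 10 CPM were *KRT7*, *KRT8*, *KRT10*, *KRT17*, *KRT18*, *KRT19* and *KRT80*. All of these had positive log2 fold changes, so for *KRT16* this outcome was fixed in advance. For *KRT17*, at 0.56, the keratins closest in log2 fold change were *KRT18* at 0.39 and *KRT80* at 0.78. Those gaps were wider than the gaps to its 3 nearest genes, so this outcome too followed from the fold changes.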

How the data were processed

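Poly(A) RNA of RT4 cells was sequenced from directional dUTP libraries, 3 for LEADR-KD and 3 for Scramble, and each library was placed by its label. The authors deposited a table of raw counts. The notes of the submitters list HISAT2 2.0.5, featureCounts 1.5.0-p3 and the hg19 build, whereas Salmon is named in the paper's methods. They also deposited FPKM values, each a count divided by gene length and by 1 constant per library, which was 0.918 to 1.08 times the library's total. A deposited table with the fold changes and p-values of the authors' own DESeq2 1.20.0 comparison was not used.

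Counts of LEADR-KD and Scramble were compared in R 4.3.3 by the quasi-likelihood test of edgeR 4.0.16, with TMM scaling, filterByExpr (minimum count 10) and no covariate. Of 57905 genes 25957 had a count and 14178 were tested. The biological coefficient of variation was 12.6%, and the steps were tested on simulated data. P-values are two-sided and adjusted by Benjamini-Hochberg over all tested genes. Rose and fell are written only of genes with an adjusted p under 0.05. The standard error is the log2 fold change divided by the square root of F. Poisson intervals and the floor of 3 counts cover counting error only, and reads carry no molecular identifiers.

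The members and all gene lists were chosen with earlier results of these data known. The text names all members, other keratins that passed (up to 6 per direction) or had at least 10 FPKM, up to 4 list members per direction with the largest change at an adjusted p under 0.05, and the 3 genes nearest in pattern to the 2 members with the smallest adjusted p. *KRT14*, *KRT86*, *JUP*, *VIM*, *VWF*, the marker genes, *RARA* and *TP63* are named outside it, as is *KRT42P*, after its values were seen. Some list genes within this rule are not reported. Alternatives were DESeq2 1.42.0, other size factors, other filters, a replicate block, leaving out libraries, limma 3.58.1 on log2(FPKM + 1) or log2(FPKM + 0.1), and adding reads of pseudogene copies. The canonical length and the ratios of *KRT17* to *KRT16*, *KRT8* to *KRT7* and *KRT18* to *KRT19* were added after seeing the data. Sites and exons were read from GENCODE v44 lifted to GRCh37.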

Additional observations from a re-analysis of the deposited data

How the results depend on the processing

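*KRT17* kept its direction and its call under all 17 alternatives run, and no change that passed the test turned direction. The log2 fold changes of *KRT15* and *KRT222*, -0.18 and -0.26 and not called, did turn: *KRT15* ranged from -0.79 to 0.083 and *KRT222* from -0.46 to 0.017 when 1 library was left out (above 0 without LEADR-KD 1 for both, and for *KRT15* also without LEADR-KD 3 or Scramble 1), and they were 0.31 and 0.18 without both libraries numbered 1. Over single genes and alternatives, 105 of the members' values were on the same side of the threshold, 3 (all *KRT8*) moved past it and 10 (*KRT16* and *KRT18*) lost the call. For the other keratins 104 were on the same side, 6 turned and 14 lost the call, and for the list genes and *MIR205HG* 426 and 86.

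Past both thresholds (adjusted p under 0.05, more than 1 on the log2 scale), 232 genes were higher and 366 lower in LEADR-KD. limma on log2(FPKM + 1) gave 83 and 101, and 82 and 103 with no filter, where the pseudocount shrinks the change of low genes. Leaving out 1 library gave 215 to 256 higher and 302 to 362 lower. At an adjusted p under 0.05 alone, 2 members were higher and 1 lower. limma on log2(FPKM + 1) with no filter left 1 higher (*KRT17*), and leaving out 1 library gave 1 to 2 higher and 0 to 1 lower. By the same threshold alone 3 other keratins were higher, against 1 with library totals, 1 with limma and no filter, and 1 to 3 without 1 library. Likewise 16 list genes were higher and 15 lower, against 10 and 6 with limma and no filter, and 10 to 15 and 9 to 15 without 1 library.

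The deviations of same-numbered libraries had correlations of 0.228, 0.00058 and 0.266 for numbers 1, 2 and 3. Between different numbers the correlations lay from -0.2965 to 0.0755, so numbers 1 and 3 were above all of these and number 2 was not. Whether the numbers mark pairs cannot be told from this, and they were not taken as pairs in the main fit. With the replicate number as a block, 259 genes were higher and 386 lower past both thresholds. At an adjusted p under 0.05 alone, 23 list genes were lower under the block and 3 members were higher, with *KRT8* added (edgeR, adjusted p = 0.0196).

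The canonical transcript length moved the level ratio of *KRT19* to *KRT7* to 1.29, of *KRT7* to *KRT8* to 1.11, of *KRT8* to *KRT18* to 2.77 and of *KRT18* to *KRT17* to 4.23, against 1.94, 1.24, 2.25 and 3.11 with the deposited length. Depth limits *KRT5*, *KRT6A*, *KRT13*, *KRT16* and *KRT20*, whose summed counts per group were at most 98.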

Other observations

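*KRT42P*, a keratin pseudogene that lies 1484 bp from *KRT17* and 10427 bp from *KRT16* on the same strand (chromosome 17, 39782579 to 39796451), had 2, 3 and 2 counts in LEADR-KD, against 12, 30 and 15 counts in Scramble. The groups did not overlap. Every LEADR-KD library was at or below the floor of 3 counts. *KRT42P* thus passed the filter on low counts only through Scramble, where it was higher. The log2 fold change was -2.90 with a standard error of 0.58 (edgeR's quasi-likelihood test, Benjamini-Hochberg adjusted p = 0.00403), and its size is uncertain so near the floor. Of 3 neighbouring keratin loci *KRT17* was higher and *KRT16* and *KRT42P* were lower in LEADR-KD. The gene model of *JUP*, on the same strand, covers all of that of *KRT42P*. Reads from that overlap may have been assigned to either gene or dropped, which was not tested. *KRT42P* was singled out after its values were seen. Its fall passed under every alternative that tested it but limma on log2(FPKM + 1) with no filter (adjusted p = 0.0692). The filter on a mean of at least 1 CPM left it untested.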
